A study of Homo sapiens with 6 samples.

Results

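The FAS and TRAIL death receptor pathway was followed through 10 genes: the receptors FAS, TNFRSF10A, TNFRSF10B and TNFRSF1A, the decoy receptors TNFRSF10C and TNFRSF10D, the ligand TNFSF10, the adaptor FADD, the protease CASP8 and its inhibitor CFLAR. A probe set was taken as a member where the platform annotation named exactly 1 gene for it and that gene was one of the 10. This gave 38 probe sets out of 43976 that name 1 gene, and 10 genes out of 17534; 2 to 9 probe sets read each gene, except TNFRSF10A, which has 1. The study used MM.1R, a myeloma line of human origin that glucocorticoids do not kill, and measured its RNA on Affymetrix PrimeView arrays. On 3 arrays the cells had been given epirubicin hydrochloride, an anthracycline that poisons topoisomerase II, and the other 3 are of cells that received shCtrl, a control vector for short hairpin RNA. Since no label says whether the drug-treated cells carried that vector too, an effect of the drug and one of the vector cannot be told apart. The sources used here give neither dose nor time. Separate cultures within a group are not mentioned either, and p-values then measure only the spread between these arrays, which may be technical.

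Death receptors are members of the tumour necrosis factor receptor superfamily with a cytoplasmic death domain. When FAS ligand binds FAS, or TRAIL (the product of TNFSF10) binds TNFRSF10A (DR4) or TNFRSF10B (DR5), the adaptor FADD joins the receptor and gathers caspase 8, which cleaves itself into its active form. CFLAR (FLIP) resembles caspase 8, enters the same complex and limits that step, while TNFRSF10C and TNFRSF10D bind TRAIL without a complete death domain. TRAIL receptors have been studied as drug targets in myeloma.

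With epirubicin, FAS rose 2.99-fold, TNFRSF10B 2.43-fold and the decoy receptor TNFRSF10D 1.54-fold. The other 7 genes did not pass: FADD, CFLAR, TNFSF10 and TNFRSF10C differed by 1.09-fold or less, TNFRSF10A and CASP8 by 1.20-fold and 1.21-fold, and TNFRSF1A was the member with the most negative difference, at 1.15-fold higher in shCtrl. A gene was called where limma's adjusted p was under 0.05 and the fold change at least 1.3, on its brightest probe set over the 6 arrays. By this rule 3 of 10 members were higher and 0 lower, where 4.36% of all 17534 genes were higher and 2.14% lower. Adjusted p alone, at any fold, was under 0.05 for 6 of the 10 members, 5 of them upward and 1 downward, where it was so for 29.1% of all genes. The groups did not overlap for 8 members, all but TNFRSF10C and FADD, and for 43.8% of all genes. The shares of all genes were not matched for brightness. In the higher group, 9 of 10 members had a mean above the median of all values, as had 10087 of 17534 genes. The median log2 fold change of the members was 0.20, and that of all genes was 0.02.

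The 250 bases before the start of transcription are shown for 3 starts, because FAS rose and can be set beside TNFRSF1A, a second death domain receptor that did not. They are from RefSeq on GRCh38.p14, written along the gene's own strand. Capitals mark matches, on either strand, to the GC box (GGGCGG), the AP-1 motif (TGANTCA), the TATA box (TATAAA) or the NF-kB motif.
FAS, first start, chr10:88990548-88990797, plus strand: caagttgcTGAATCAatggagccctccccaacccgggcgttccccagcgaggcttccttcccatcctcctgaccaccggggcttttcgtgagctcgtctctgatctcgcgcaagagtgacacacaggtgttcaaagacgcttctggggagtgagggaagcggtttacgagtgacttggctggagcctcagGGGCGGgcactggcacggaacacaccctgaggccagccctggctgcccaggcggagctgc
FAS, last start, chr10:88991181-88991430, plus strand: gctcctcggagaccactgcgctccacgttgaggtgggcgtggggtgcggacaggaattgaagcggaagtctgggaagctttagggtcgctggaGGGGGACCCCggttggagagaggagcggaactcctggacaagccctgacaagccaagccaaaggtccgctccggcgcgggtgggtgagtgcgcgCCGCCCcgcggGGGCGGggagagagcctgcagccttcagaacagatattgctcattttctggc
TNFRSF1A, chr12:6342077-6342326, minus strand: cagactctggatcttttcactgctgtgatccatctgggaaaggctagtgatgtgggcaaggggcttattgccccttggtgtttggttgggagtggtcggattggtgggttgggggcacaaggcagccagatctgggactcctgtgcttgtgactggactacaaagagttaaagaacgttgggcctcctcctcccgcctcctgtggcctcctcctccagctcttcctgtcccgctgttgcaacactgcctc

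The window before the first FAS start holds 1 AP-1 match and 1 GC box. The window before the last start, which lies 633 bases further along, holds 1 match to the NF-kB motif and 2 GC boxes. The TNFRSF1A window holds none of the 4 motifs. Matches also stand before uncalled members: of their 10 windows, 4 hold a GC box (CASP8, CFLAR and FADD), 2 the AP-1 motif (CASP8 and CFLAR), 1 the NF-kB motif (CFLAR) and 2 the TATA box (CASP8 and TNFSF10). Each motif found in the FAS windows thus also stands before an uncalled member. With 1 called member among these windows, whether matches go with a call cannot be tested. Over all 35116 windows of the same length in the table, 42.6% hold a GC box, 6.57% the AP-1 motif, 9.96% the NF-kB motif and 10.7% the TATA box. A match is a description of the letters in the window, and the arrays do not measure which start was used. Promoters of the TNFRSF10 genes are not analysed here.

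FAS, the receptor of FAS ligand, had log2 expression values of 9.69, 9.73 and 9.76 in the epirubicin arrays, against 8.11, 8.12 and 8.21 in the shCtrl arrays. Every epirubicin array lay above every shCtrl array, and the gap between the groups was far wider than the spread within either. The log2 fold change was 1.58 (SE 0.04, 95% confidence interval (CI) 1.48 to 1.68, limma, adjusted p = 4.89e-06), which ranked 22 among 17534 genes from the top. The second FAS probe set gave 1.73 (SE 0.05).

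TNFRSF10B, the TRAIL receptor DR5, had log2 values of 9.92, 9.91 and 9.94 with epirubicin, against 8.63, 8.62 and 8.68 in shCtrl. No epirubicin array overlapped with shCtrl. The log2 fold change was 1.28 (SE 0.03, CI 1.20 to 1.36, limma, adjusted p = 4.78e-06). All 3 probe sets were called higher, but they differed in size: both others were dimmer and gave 0.74 (SE 0.06) and 1.04 (SE 0.07). The brightest is of the _x_at kind, in which some probes also match other transcripts. Without such probe sets the value was 0.74, so that the fold lay between 1.67 and 2.43 by the choice of probe set.

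TNFRSF10A, the TRAIL receptor DR4, had log2 values of 8.78, 8.89 and 8.85 with epirubicin, against 8.56, 8.57 and 8.59 in shCtrl. The groups did not overlap, but the log2 fold change of 0.27 (SE 0.04, CI 0.17 to 0.36, limma, adjusted p = 0.00289) was under the fold threshold. Within each array the log2 value of TNFRSF10B minus that of TNFRSF10A was 1.14, 1.02 and 1.09 with epirubicin, against 0.08, 0.05 and 0.09 in shCtrl. On these probe sets DR5 changed by 1.01 (SE 0.04) more than DR4 on the log2 scale, and by 0.47 (SE 0.07) on the brightest DR5 probe set that is not of the _x_at kind. An exact permutation test over the arrays gave a two-sided p = 0.1 for either, below which a design of this size cannot go. This comparison is 1 of 6 pairs of members, chosen after their values were seen, and the adjusted p was 0.1 for each of the 6.

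TNFRSF1A, the main receptor of TNF, which also carries a death domain but gathers TRADD before FADD, had log2 values of 8.35, 8.37 and 8.38 with epirubicin, against 8.56, 8.53 and 8.61 in shCtrl. All 3 epirubicin arrays lay below all 3 shCtrl arrays. The log2 fold change was -0.20 (SE 0.03, CI -0.28 to -0.12, limma, adjusted p = 0.00569), under the fold threshold, and its other probe sets gave -0.16 to -0.27. Of its 4 probe sets 3, with the brightest among them, are of the _s_at kind, whose probes match several transcripts. The remaining, dimmest one gave -0.16 (SE 0.06, limma, adjusted p = 0.0981), and on it the groups overlapped. FAS minus TNFRSF1A within each array was 1.34, 1.36 and 1.38 with epirubicin, against -0.44, -0.42 and -0.40 in shCtrl. The change of FAS exceeded that of TNFRSF1A by 1.78 (SE 0.02) on the log2 scale (exact permutation test, two-sided p = 0.1). This SE comes from the 3 arrays of each group alone and is not limma's, so it cannot be set beside those of the single genes.

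**Figure D1:**
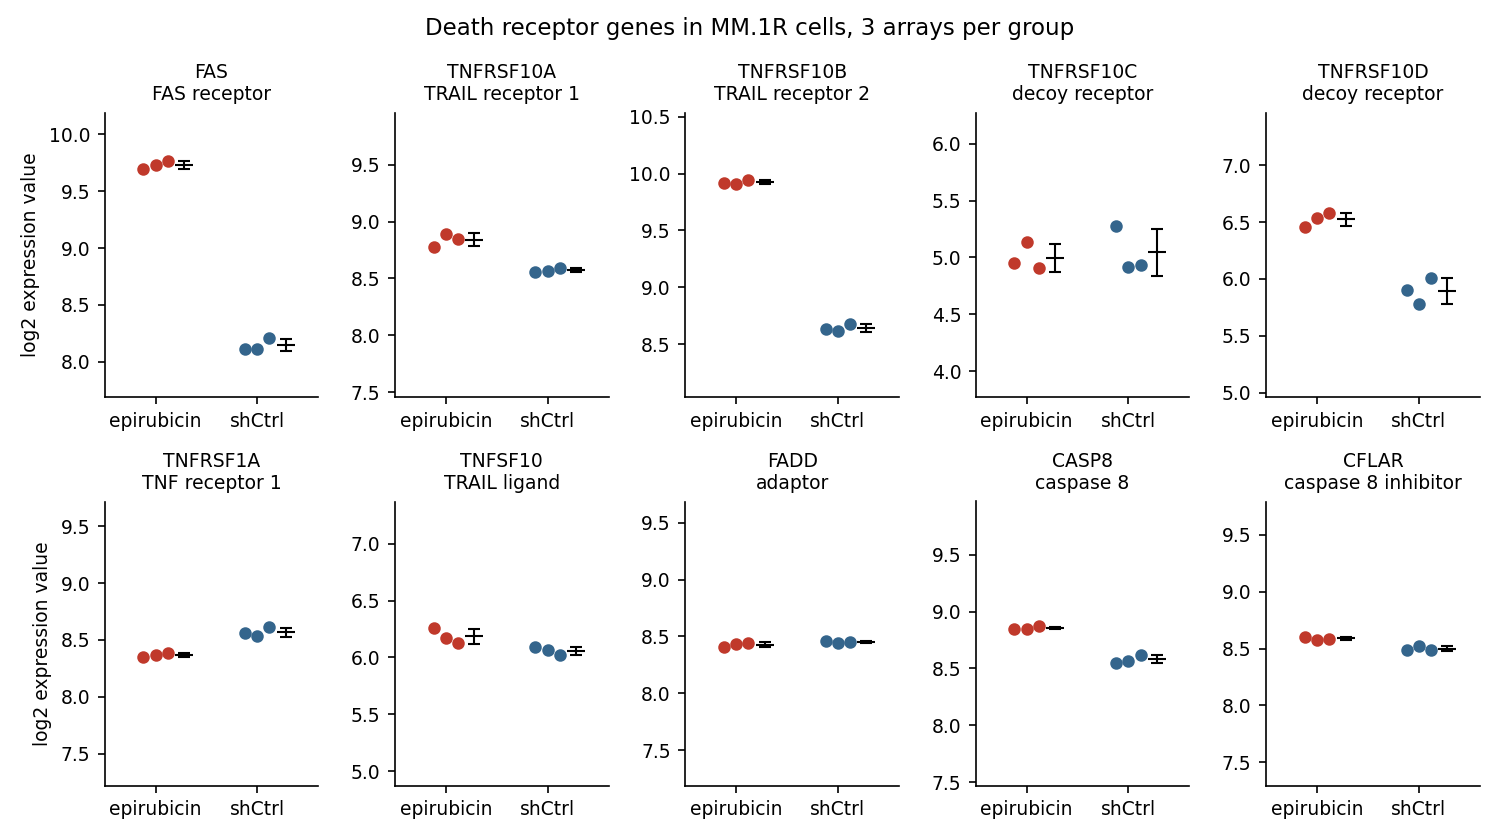
Log2 expression values of the 10 members on their brightest probe set, with 1 point per array, epirubicin left and shCtrl right, and the mean ± SD of 3 arrays as a black bar. Every panel spans the same number of log2 units around its own centre; FAS, TNFRSF10B and TNFRSF10D separate by 1.58, 1.28 and 0.63, and the remaining 7 by 0.28 or less.

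TNFRSF10D, which holds a truncated death domain, had log2 values of 6.46, 6.53 and 6.58 with epirubicin, against 5.90, 5.78 and 6.01 in shCtrl. Its groups did not overlap, and the log2 fold change was 0.63 (SE 0.06, CI 0.47 to 0.78, limma, adjusted p = 0.000735). A dimmer probe set of the gene, with both group means below 5.54, the median of all values, gave 0.29 (SE 0.09) and was not called. TNFRSF10C, which is anchored to the membrane by a lipid and has no death domain, had log2 values of 4.95, 5.14 and 4.90 with epirubicin, against 5.28, 4.92 and 4.94 in shCtrl. The groups overlapped, and the log2 fold change was -0.05 (SE 0.11, CI -0.31 to 0.22, limma, adjusted p = 0.799). It was the only member with both group means below the median of all values, and its 3 probe sets did not share a direction, at -0.05, 0.16 and 0.28.

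Whether TNFRSF10B and TNFRSF10D differed in the size of their change depended on the DR5 probe set. On the brightest one their difference within each array was 3.46, 3.37 and 3.36 with epirubicin, against 2.73, 2.84 and 2.67 in shCtrl, a change of 0.65 (SE 0.06) in favour of DR5 (exact permutation test, two-sided p = 0.1). On the brightest one not of the _x_at kind the change was 0.11 (SE 0.12), and the groups overlapped (exact permutation test, two-sided p = 0.3). FAS changed by 0.30 (SE 0.02) more than TNFRSF10B on the brightest probe sets and by 0.84 (SE 0.08) without _s_at and _x_at probe sets (exact permutation tests, two-sided p = 0.1 for both). On its brighter probe set TNFRSF10D changed by 0.36 (SE 0.07) more than TNFRSF10A (exact permutation test, two-sided p = 0.1). The dimmer TNFRSF10D probe set gave 0.29 (SE 0.09), against 0.27 (SE 0.04) for TNFRSF10A, and that difference was not tested.

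TNFSF10, which encodes TRAIL, had log2 values of 6.26, 6.17 and 6.13 with epirubicin, against 6.09, 6.06 and 6.02 in shCtrl. The groups did not overlap, by a margin smaller than the range within either group. The log2 fold change was 0.13 (SE 0.04, CI 0.02 to 0.23, limma, adjusted p = 0.0783). Its 3 probe sets gave 0.13, 0.17 and 0.33, the last with an adjusted p of 0.0130 in limma and under the fold threshold. FASLG, the ligand of FAS, lay at 3.58 ± 0.03 with epirubicin and 3.62 ± 0.10 in shCtrl (SD, n = 3), under the lower quartiles of the arrays (3.84 to 3.90), and was not called (log2 fold change -0.05, SE 0.06).

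FADD, the adaptor that links FAS and the TRAIL receptors to caspase 8, had log2 values of 8.41, 8.43 and 8.45 with epirubicin, against 8.46, 8.44 and 8.45 in shCtrl. The groups overlapped. The log2 fold change was -0.02 (SE 0.03, CI -0.09 to 0.05, limma, adjusted p = 0.657), and the other 2 probe sets gave -0.04 and -0.05. The interval leaves out any change of 1.3-fold.

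CASP8, the protease that starts the death receptor cascade, had log2 values of 8.85, 8.85 and 8.87 with epirubicin, against 8.55, 8.57 and 8.62 in shCtrl. The groups did not overlap, with a log2 fold change of 0.28 (SE 0.03, CI 0.20 to 0.36, limma, adjusted p = 0.00129), under the fold threshold. Of its 8 probe sets, 0 were called and all gave values above 0, from 0.02 to 0.28; the 2 dimmest were the 2 lowest, at 0.07 and 0.02. CFLAR had log2 values of 8.60, 8.58 and 8.59 with epirubicin, against 8.49, 8.52 and 8.49 in shCtrl, again with no overlap. Its log2 fold change was 0.09 (SE 0.03, CI 0.02 to 0.16, limma, adjusted p = 0.0692), and its 9 probe sets gave 0.05 to 0.19 with 0 called. The difference of CASP8 minus CFLAR within each array was 0.25, 0.27 and 0.28 with epirubicin, against 0.06, 0.05 and 0.13 in shCtrl, a change of 0.19 (SE 0.03; exact permutation test, two-sided p = 0.1), and one of 0.11 (SE 0.03) without _s_at and _x_at probe sets. CFLAR makes long and short forms by splicing, and the probe sets were not assigned to forms here.

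**Figure D2:**
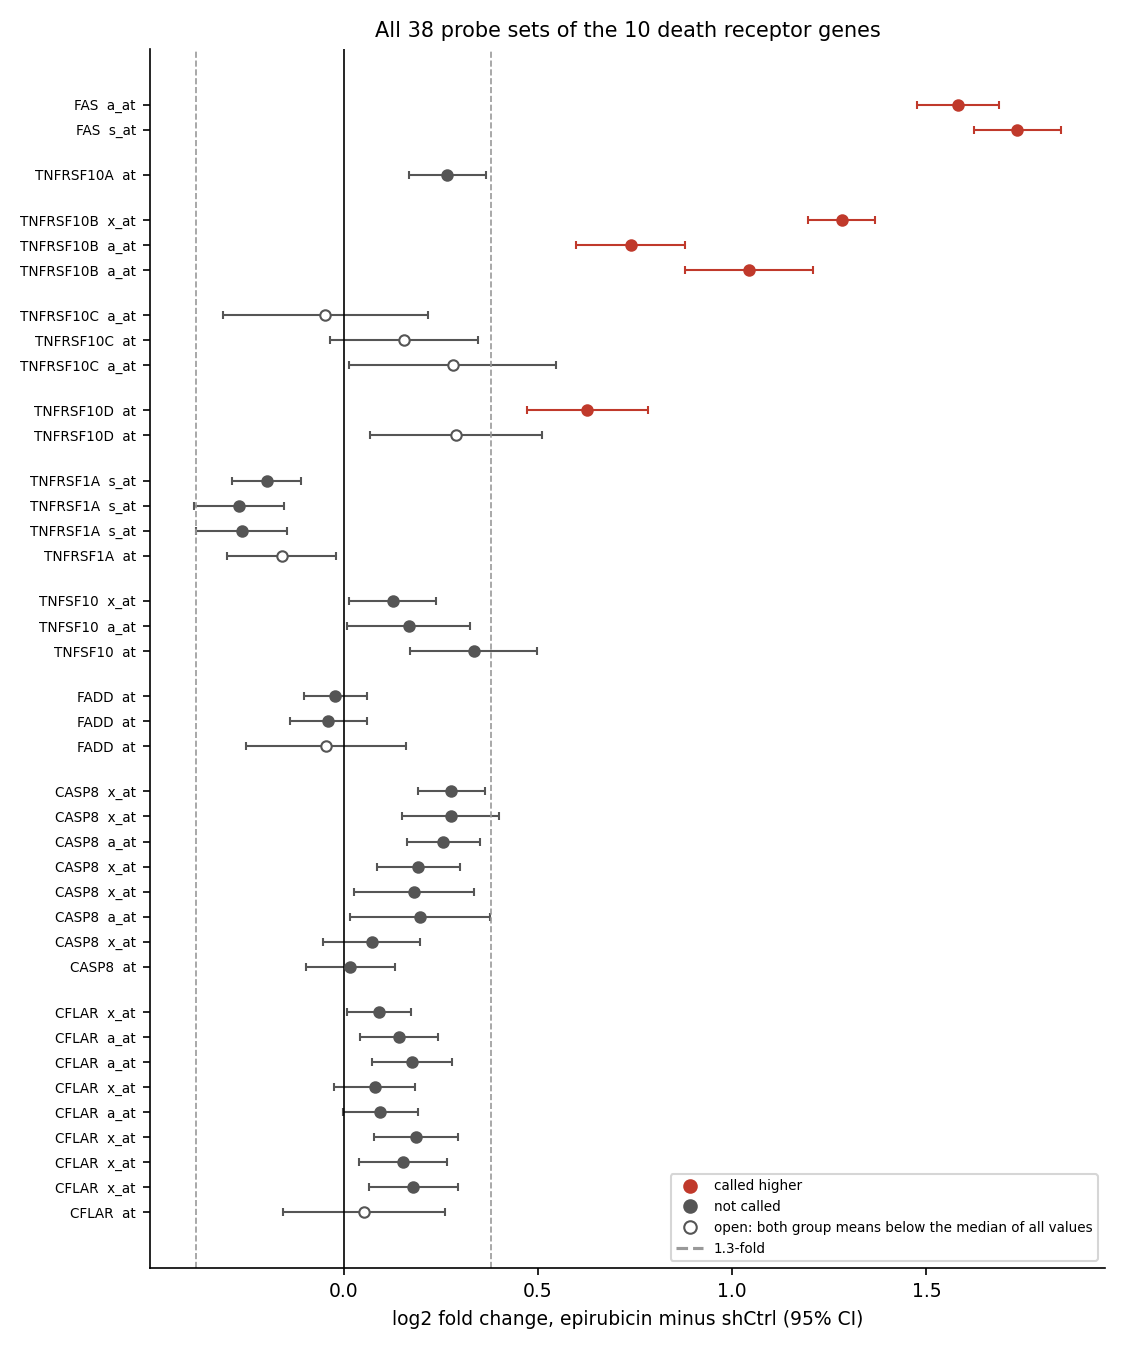
Log2 fold change, epirubicin minus shCtrl, of all 38 member probe sets with limma's 95% CI, ordered by gene and then by brightness; red points were called higher, open points have both group means below the median of all values, and dashed lines mark 1.3-fold. The 6 called probe sets are the 2 of FAS, the 3 of TNFRSF10B and 1 of 2 of TNFRSF10D, while the CASP8 and CFLAR probe sets lie between 0.02 and 0.28.

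Over the 38 probe sets, 6 were called higher and 0 lower, where 3.65% of all 47481 probe sets were higher and 2.62% lower. Probe sets of 1 gene share their transcripts and are not independent. At any fold, the adjusted p was under 0.05 for 19 of the 38, where it was so for 25.1% of all probe sets. The groups did not overlap for 26 of the 38, and for 41.2% of all probe sets. By adjusted p, besides the 6 the 19 included 4 of CASP8, 4 of CFLAR, 3 of TNFRSF1A, 1 of TNFRSF10A and 1 of TNFSF10.

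Members that are neighbours on a chromosome differed in their values. The 4 TRAIL receptor genes are consecutive protein-coding genes on chromosome 8 by RefSeq's order for GRCh38.p14: TNFRSF10B, TNFRSF10C, TNFRSF10D and TNFRSF10A. Their log2 fold changes in that order were 1.28, -0.05, 0.63 and 0.27. On either side, RHOBTB2 gave 0.004 (SE 0.10) and CHMP7 -0.04 (SE 0.04), and neither was called. On chromosome 2 the order is CFLAR, CASP10 and CASP8, with log2 fold changes of 0.09, -0.09 and 0.28 and 0 called; CASP10 is a close relative of CASP8 that also joins death receptor complexes.

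FAS overlaps ACTA2, the gene of smooth muscle actin, on chromosome 10. The brightest ACTA2 probe set, of the _s_at kind, whose probes match several transcripts, had log2 values of 5.98, 5.78 and 5.92 with epirubicin, against 4.72, 4.58 and 3.73 in shCtrl. All epirubicin values lay above the widely spread shCtrl ones. Its log2 fold change was 1.55 (SE 0.25, limma, adjusted p = 0.00425), close to the 1.58 of FAS. The other 2 ACTA2 probe sets, the brighter of them at log2 means of 2.79 with epirubicin and 2.56 in shCtrl, gave 0.23 and -0.03 and were not called. As the mean of its probe sets ACTA2 gave 0.58. STAMBPL1 and CH25H, the nearest protein-coding genes on either side, gave 0.01 (SE 0.03) and 0.02 (SE 0.05).

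**Figure D3:**
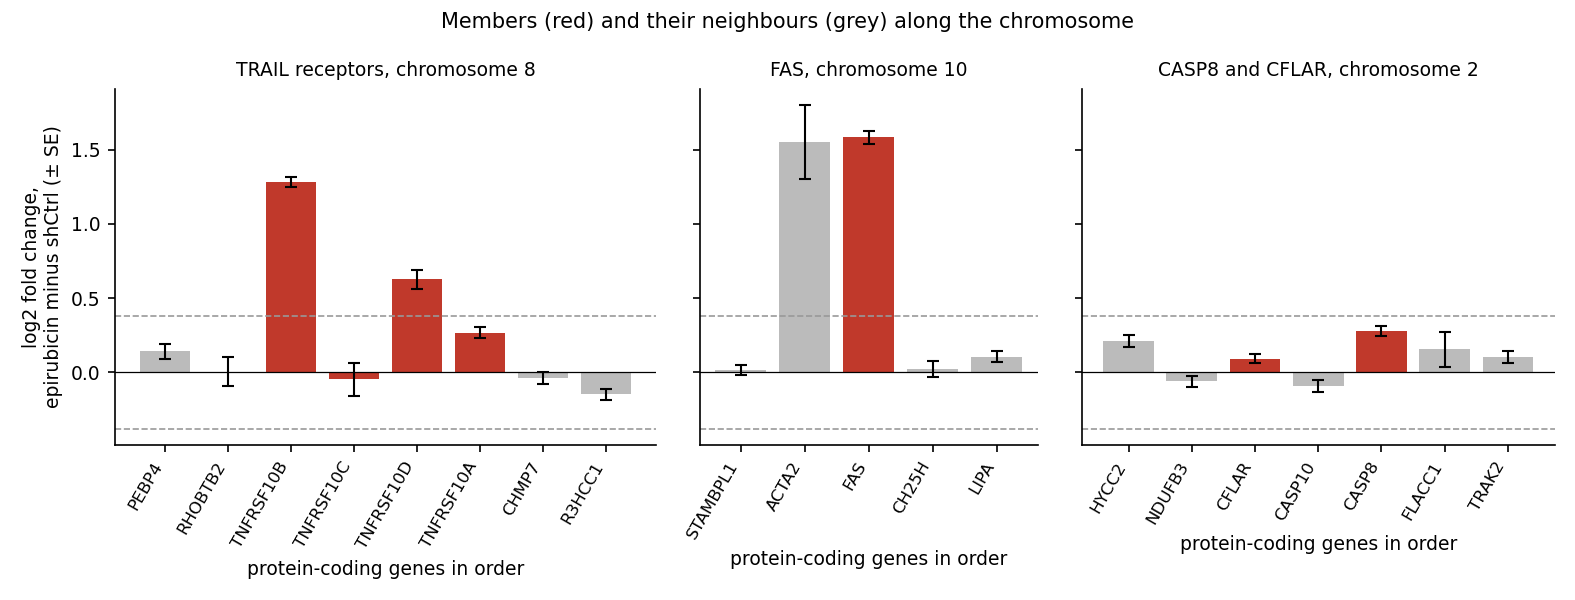
Log2 fold change, epirubicin minus shCtrl, with limma's SE as error bars, of the members (red) and the protein-coding genes beside them (grey), in their order on chromosomes 8, 10 and 2; dashed lines mark 1.3-fold. TNFRSF10B at 1.28 stands next to TNFRSF10C at -0.05, and FAS at 1.58 next to ACTA2 at 1.55.

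The wider pathway was read through 5 further lists with 62 genes, of which 53 were measured; the remaining 9 are not analysed here. Of the 53, 4 were higher and 2 lower, and the median log2 fold change was 0.02. Beside these counts and those of the single lists stand the shares of all genes, 4.36% higher and 2.14% lower. Of 6 other receptors of the superfamily (TNFRSF25, TNFRSF21, NGFR, EDAR, TNFRSF11B and TNFRSF1B) 0 were called by limma, with a median of -0.04. TNFRSF1B, the second TNF receptor, which has no death domain, gave -0.32 (SE 0.04), under the fold threshold with an adjusted p of 0.00199 in limma, and was the single one of the 6 with an adjusted p under 0.05. On dimmer probe sets, 1 of 3 of TNFRSF1B (-0.44, SE 0.05) and 1 of 3 of TNFRSF21 (-0.59, SE 0.13) were called lower. Of 6 other ligands 0 were called either on their brightest probe sets, at a median of 0.10 and with no adjusted p under 0.05, but the dimmer of the 2 LTA probe sets was called higher (0.45, SE 0.05); TNF itself lay at 4.06 ± 0.08 with epirubicin and 3.93 ± 0.04 in shCtrl (SD, n = 3).

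Of 19 genes that act next to the receptors, 3 rose, 0 fell and the median was 0.03. PEA15, a protein with a death effector domain that binds FADD and caspase 8, had log2 values of 9.60, 9.57 and 9.60 with epirubicin, against 8.73, 8.75 and 8.68 in shCtrl. The groups lay far apart, and the log2 fold change was 0.87 (SE 0.03, limma, adjusted p = 2e-05), with both of its probe sets called. TNFAIP3, which encodes the ubiquitin-editing enzyme A20, rose by 0.50 (SE 0.04; 1 of 2 probe sets called). CYLD, a deubiquitinase of the TNF receptor complex, rose by 0.39 (SE 0.03; 2 of 4 probe sets called), close to the fold threshold of 0.38 on the log2 scale. As the mean of its probe sets CYLD gave 0.29, and with arrays centred on their medians 0.36, both short of that threshold; TNFAIP3 gave 0.30 without its _s_at probe set. CASP10 was not called (-0.09, SE 0.04, limma, adjusted p = 0.161).

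Of 10 genes of the execution step, 0 rose and 1 fell, and the median was -0.02. CASP6, an effector caspase, was lower at 7.99 ± 0.03 with epirubicin, against 8.38 ± 0.04 in shCtrl (SD, n = 3; log2 fold change -0.39, SE 0.04, limma, adjusted p = 0.000507; 1 probe set), close to the fold threshold. The call of CASP6 ended without epirubicin replicate 1 (-0.37), without shCtrl replicate 2 (-0.37) and under quantile normalization (-0.37). Its probe set is of the _x_at kind, so CASP6 gave no value without such probe sets. BID, which caspase 8 cleaves to engage mitochondria, was not called (-0.04, SE 0.04), nor was XIAP, an inhibitor of effector caspases (0.0004, SE 0.05).

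Of 12 transcription regulators linked to death receptor genes, 1 rose and 1 fell, and the median was 0.10. DDIT3, which encodes CHOP, a stress factor known to induce TNFRSF10B, had log2 values of 6.85, 7.00 and 7.02 with epirubicin, against 5.40, 5.33 and 5.53 in shCtrl. Its groups did not overlap, and the log2 fold change was 1.54 (SE 0.07, limma, adjusted p = 3.45e-05), with both probe sets called. Both are of the _s_at kind, so DDIT3 gave no value without such probe sets. TRIB3 and ATF4, other genes of that stress response, gave 0.30 (SE 0.03) and 0.18 (SE 0.03), under the fold threshold. MYC, described as a repressor of CFLAR, was lower, at -0.52 (SE 0.03).

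**Figure D4:**
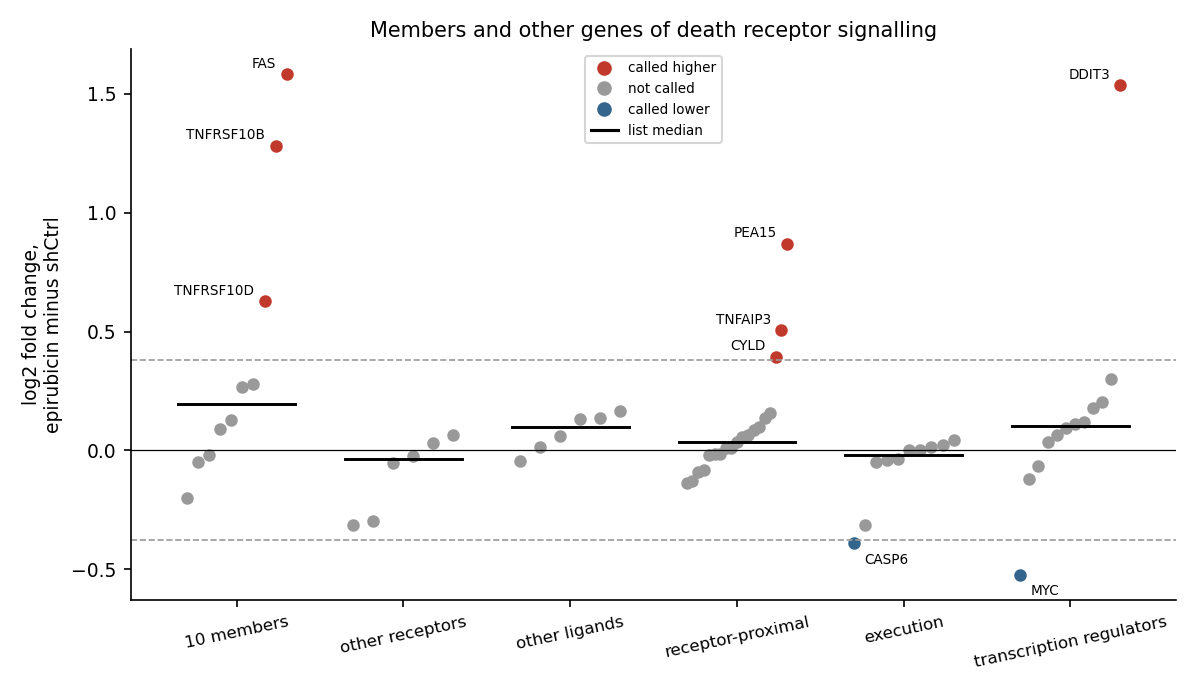
Log2 fold change, epirubicin minus shCtrl, of the 10 members and of 53 other genes of death receptor signalling in 5 lists, with 1 point per gene on its brightest probe set, black lines at the list medians and dashed lines at 1.3-fold. Called genes are named: 3 members, 3 receptor-proximal genes and DDIT3 lie above the upper line, and CASP6 and MYC below the lower one.

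Among 10087 genes whose higher group mean exceeded the median of all values, the 3 whose 6-array profile lay nearest to that of FAS were DDIT3, RGS1, a regulator of G protein signalling, and the chemokine gene CCL2. Likeness was the mean absolute difference over the 6 arrays of log2 values centred on each gene's shCtrl mean, and it was 0.04, 0.05 and 0.06. Their log2 fold changes were 1.54, 1.51 and 1.51. By this measure genes with a fold change close to that of FAS come out nearest, so these values follow from the search. Shared regulation was not tested.

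The cells, labelled MM.1R, a myeloma line, carried plasma cell markers. Of 10 plasma cell genes, 9 with epirubicin and 10 in shCtrl had group means above the median of all values. CD38 was the one below it with epirubicin. The mean of the 10 genes per array was 11.1 to 11.2 on the log2 scale with epirubicin and 11.3 in shCtrl. Of the 10, 0 were higher and 2 lower, CD38 and IRF4, where 4.36% of all genes were higher and 2.14% lower. In bulk RNA fewer cells of a kind and less RNA per cell cannot be told apart. Markers of other cell types lay lower, with list means per array of 4.45 to 4.77 with epirubicin and 3.92 to 4.72 in shCtrl over the T and NK, myeloid, stromal and epithelial lists. Of 10 myeloid markers 3 were higher, ITGAM (3.75, SE 0.05), CD68 (0.63, SE 0.05) and S100A9 (0.53, SE 0.10), and 0 lower. ITGAM gave 0.79 on the probe set that was brightest in shCtrl, and 2.35 as the mean of its probe sets. For CD68, 1 of 2 probe sets was called, and both are of the _x_at kind. S100A9 has 1 probe set, with both group means (5.52 with epirubicin, 4.99 in shCtrl) below the median of all values. It gave no value under the filter on dim probe sets. Of the uncalled myeloid markers, CD14, LYZ, FCGR3A, S100A8 and FCN1 lay under the lower quartiles of the arrays (3.84 to 3.90). Their log2 means were 2.95, 2.52, 1.84, 3.44 and 3.66 with epirubicin and 2.79, 2.39, 1.85, 3.39 and 3.54 in shCtrl. CSF1R (5.07 in both groups) and MPO (5.23 with epirubicin, 5.18 in shCtrl) lay above those quartiles and below the median of all values. Of 9 stromal markers 2 were higher, ACTA2 and FN1 (0.98, SE 0.04), and of 9 T and NK and 6 epithelial markers 0 were called.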

How the data were processed

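The values are the authors' deposited log2 expression values, 1 per probe set and array. No label states the scale; log2 was inferred from their range (1.41 to 13.73). Per the submitters' processing notes the affy package was used; how background, normalization and probe summary were handled is not given in the sources used here. If arrays were normalized before deposit, a change in total RNA per cell is not seen. Array medians were 5.52 to 5.57, and nothing was normalized further. Scanner files and detection calls were not used here. Precision is limited by the number of arrays.

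By the platform annotation 43976 of 47481 probe sets name 1 gene, 1558 several and 1947 none. Symbols were updated through Entrez numbers against RefSeq (43954 matched). limma 3.58.1 in R 4.3.3 (lmFit, eBayes, 6 arrays, no covariate) was fitted to 17534 genes, each on its brightest probe set, and to all probe sets, with Benjamini-Hochberg adjustment over all. The thresholds (1.3-fold, and 0.05 for the adjusted p) are those of the series' design text. The fit was also run on simulated data with independent values per array. Such data cannot address spread shared by the arrays of a group, and the outcome is not reported here. Fold changes are epirubicin minus shCtrl.

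All members are described. Of the other lists every called gene is named, with CASP10, BID, XIAP, FASLG and TNF preset; 1 further preset gene is not reported here. TRIB3, ATF4, TNFRSF1B, TNFRSF21, LTA and the uncalled myeloid markers were named after their values were seen. Members and lists were chosen with earlier results of these data known. Arrays with the same replicate number did not deviate together (r = -0.03, 0.02 and 0.001 across probe sets).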

Additional observations from a re-analysis of the deposited data

How the results depend on the processing

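FAS, TNFRSF10B and TNFRSF10D were called higher, and 0 members lower, under each of 14 alternatives that kept the fold threshold. These were quantile normalization, array median centring, the mean of a gene's probe sets, the brightest probe set in shCtrl, a filter on dim probe sets, limma with trend and robust variance, the replicate number as a block, each of 6 arrays left out in turn and, chosen after seeing the data, no _s_at and _x_at probe sets. The log2 fold change of FAS ranged from 1.55 to 1.66, that of TNFRSF10B from 0.74 to 1.31 and that of TNFRSF10D from 0.46 to 0.68. With the replicate block 3 members were higher and 6 genes of the wider pathway were called, as without it. Without a fold threshold 5 members were higher and 1 lower, and 16 member probe sets were higher and 3 lower. Of the 53 genes of the wider pathway, 15 were then called in place of 6. This alternative drops 1 of the conditions of a call. By adjusted p alone, 29.1% of all genes and 25.1% of all probe sets were called. Of all 17534 genes, 2744 were then higher and 2362 lower. The member counts at any fold belong to the main fit, since limma's adjusted p crossed 0.05 between alternatives for some members. It ran from 0.0072 to 0.200 for TNFSF10 and from 0.0103 to 0.226 for CFLAR. For TNFRSF10C it ran from 0.0423 to 0.998, and for TNFRSF1A from 5.7e-05 to 0.0941. TNFRSF10C turned to 0.13 as the mean of its probe sets and, with 1 array left out, lay between -0.12 (without epirubicin replicate 2) and 0.071 (without shCtrl replicate 1), and FADD turned to 0.0025 under quantile normalization, all still short of the fold threshold. Among the preset genes, CASP10 turned to 0.0028 as the mean of its probe sets, and XIAP to -0.048 by the same mean and to -0.032 with median centring; with 1 array left out XIAP lay between -0.042 and 0.035 and FASLG between -0.098 and 0.0062. The calls of CYLD, TNFAIP3, CASP6 and ACTA2 each ended under 1 to 3 alternatives, ACTA2 at 0.23 without its _s_at probe set. Without _s_at and _x_at probe sets the adjusted exact p of the 6 pairs of members was 0.12 to 0.3, in place of 0.1. For all of these the cause was not tested. With 1 array left out, the 6 called member probe sets numbered 6 to 7 and the pathway genes 5 to 6. TNFRSF10C gave no value under the filter on dim probe sets, and with no detection calls its level cannot be told from background.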
